A study of Mus musculus with 6 samples.

Results

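The 39 genes described here are immediate early and activity-regulated genes, which cells switch on soon after a stimulus. They were taken by gene symbol from a list that covers the Fos, Jun, Egr and Nr4a transcription factors, other rapid regulators, signalling brakes and effectors. All 39 were found among the 24532 genes of the deposited table (Cyr61 is the gene now named Ccn1), and 38 passed the filter on low counts. Fosl1, which encodes a Fos family protein, did not pass. It had 1, 0 and 1 estimated reads in ethanol 1, 2 and 3, and 1, 0 and 5 in control 1, 2 and 3.

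Messenger RNA was sequenced from the nucleus accumbens core, a ventral striatal region of reward and motivated behaviour, in 3 ethanol and 3 control samples of wild-type male mice. The mice are called adolescent, with postnatal days 35 to 55 given. This range is not taken here as the age at tissue collection, which came after 27 days of drinking. The study's text describes context fear conditioning, extinction trials and then an every-other-day drinking assay of 27 days, with tissue taken 24 h after it, for the mice as a whole. The ethanol schedule was 6 intraperitoneal injections over 6 h of 20% v/v ethanol in saline, at 1.8 g/kg and then 1.2 g/kg, given after conditioning and before extinction. The same injection text stands with all 6 samples and the treatment field reads ethanol exposure in all of them, so the groups rest on the sample titles. What control mice received in place of ethanol is not stated, nor whether each sample is 1 animal, so that p-values measure the spread between samples, which may be technical. The text sets no difference between the groups in drinking, and does not name the fluid. Tissue was thus taken a day after the drinking assay and weeks after the injections.

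Immediate early genes need no new protein for their induction. Calcium entry and cAMP made on receptor activation switch on kinases, and these act on CREB and the serum response factor, which already sit at the promoters. The mRNAs are short-lived, so their level mostly reflects the hours before tissue collection. In the striatum they are widely used as marks of neuronal activation by drugs, reward and stress, and a stable product of Fosb, called ΔFosB, is known for building up during repeated drug exposure.

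The libraries held 36197592 to 67399599 estimated reads in ethanol and 35898026 to 55672232 in control. Control 2 had reads for 15924 genes, against 17096 to 17707 in the other 5 libraries, and stood apart from all others along the leading axis of a principal component analysis (35.7% of variance). CPM are reads per 1000000 of the scaled library. No 2 libraries were alike within sampling noise. Of the markers of medium spiny neurons, the projection neurons of the striatum, 13 of 13 had reads in every library. So did 7 of 7 markers of meningeal fibroblasts, so having reads does not by itself check the tissue label. Markers of striatal neurons also cannot tell the core from other parts of the striatum. Drd1 averaged 50.3 CPM in ethanol and 35.3 in control, Drd2 42.1 and 23.2 CPM in the same order, and Ppp1r1b, the DARPP-32 gene, 770.4 and 544 CPM. Slc17a7, a glutamate transporter gene of cortical neurons, had 24.7, 9.42 and 56.0 CPM in ethanol 1, 2 and 3, against 289, 58.2 and 102 CPM in control 1, 2 and 3. Summed markers of meningeal fibroblasts were 43.5 to 51.1 CPM in ethanol and 53.4 to 93.7 in control (most abundant Igf2), those of choroid plexus 395 to 436 and 381 to 930 CPM in the same order (Enpp2 by its median), and those of blood 112 to 446 and 119 to 225 CPM (Hba-a1). The 930 CPM are those of control 3, where the choroid plexus gene Ttr had 394 CPM, against 0.73 to 2.02 CPM in ethanol and 4.63 and 2.18 CPM in control 1 and 2. Enpp2 made up most of the choroid plexus sums, at 378 to 420 CPM in ethanol and 362 to 517 in control. Kcnj13 and Folr1 had 1.78 and 1.07 CPM in control 3 and at most 0.66 CPM elsewhere, and Clic6 and Kl had 3.07 to 11.6 CPM. The blood gene Hbb-bs was at 0 in ethanol 3 and control 2, which had the lowest blood sums, and at 71.2 to 190 CPM elsewhere. Hba-a1 had 103 and 116 CPM in ethanol 3 and control 2. Astrocyte markers summed to 1861 to 2431 CPM in ethanol and 1633 to 2001 in control (Slc1a2), and oligodendrocyte markers to 15667 to 20231 and 18872 to 22269 CPM in the same order (Mbp). Of these 5 sums only the meningeal ones did not overlap, and their part in the results was not tested.

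The cAMP response element is the site through which CREB acts on many of these genes. To show it, the 250 bases before the RefSeq start (GRCm38.p6) are printed for 5 members. Capitals mark the element's 5-base core TGACG on either strand, and the full element TGACGTCA, which contains the core on both strands. All 5 were printed as holders of the core, while the windows of other members, such as Jun and Jund, lack it. No promoter was matched for Egr3.
Npas4: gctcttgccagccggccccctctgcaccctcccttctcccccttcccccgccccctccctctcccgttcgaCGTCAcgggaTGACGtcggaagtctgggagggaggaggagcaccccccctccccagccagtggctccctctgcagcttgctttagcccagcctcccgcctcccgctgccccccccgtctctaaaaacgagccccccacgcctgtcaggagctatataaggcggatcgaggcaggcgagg
Fos: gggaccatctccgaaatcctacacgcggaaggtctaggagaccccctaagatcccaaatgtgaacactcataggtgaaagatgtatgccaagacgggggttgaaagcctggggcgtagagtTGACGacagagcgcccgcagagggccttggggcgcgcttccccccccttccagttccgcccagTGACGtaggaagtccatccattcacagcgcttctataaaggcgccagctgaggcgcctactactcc
Fosb: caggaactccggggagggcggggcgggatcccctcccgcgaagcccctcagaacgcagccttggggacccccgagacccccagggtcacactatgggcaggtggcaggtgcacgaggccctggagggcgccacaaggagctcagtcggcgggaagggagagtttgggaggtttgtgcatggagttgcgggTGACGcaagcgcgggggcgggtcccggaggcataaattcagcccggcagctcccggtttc
Nr4a1: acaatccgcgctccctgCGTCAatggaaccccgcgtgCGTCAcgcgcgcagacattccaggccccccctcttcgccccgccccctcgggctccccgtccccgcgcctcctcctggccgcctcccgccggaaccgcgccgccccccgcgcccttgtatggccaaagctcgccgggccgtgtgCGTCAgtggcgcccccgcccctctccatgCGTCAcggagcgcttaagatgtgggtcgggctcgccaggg
Dusp1: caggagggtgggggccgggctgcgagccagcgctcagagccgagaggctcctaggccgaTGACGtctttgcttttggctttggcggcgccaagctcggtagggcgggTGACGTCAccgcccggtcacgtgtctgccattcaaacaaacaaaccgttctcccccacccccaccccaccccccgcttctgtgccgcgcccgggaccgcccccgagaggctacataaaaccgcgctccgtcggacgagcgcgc
These windows are chr19:4989972-4990221 (minus strand) for Npas4, chr12:85473640-85473889 (plus strand) for Fos, chr7:19310046-19310295 (minus strand) for Fosb, chr15:101266596-101266845 (plus strand) for Nr4a1 and chr17:26508473-26508722 (minus strand) for Dusp1. Each is written along its gene. Npas4 holds 2 cores, Fos 2, Fosb 1 and Nr4a1 4, while Dusp1 holds the full element between 143 and 136 bases before the start and 1 further core.

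Promoters were matched for 28 of the 39 members. The core lay in 18 of the 28 (64.3%), against 28.7% of the 12405 tested genes with a promoter and 17.8% of all 32851 promoters. The full element lay in 4 of the 28 (14.3%), namely Btg2, Dusp1, Maff and Plk2, against 2.93% of tested genes and 1.55% of all promoters. The CArG box, the site of the serum response factor, lay in 2 (Dusp5 and Egr2), against 1.38% of tested genes and 1.47% of all promoters. A gene with several starts counts as holding a motif if any window does. The core contains a CpG, and the member windows held a median of 21 CpG dinucleotides, against 16 in those of tested genes. A match is a description of letters and not a shown binding site. Sites outside the 250 bases were not searched, nor were members without a matched promoter, among them Egr1, Egr3 and Arc.

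Levels between genes are compared in FPKM, which divide by transcript length, as the authors deposited them and summed over a gene's transcripts. The median over the 38 members was 4.98 FPKM, against 5.81 over all tested genes. Jund, a Jun family gene known for steady expression, was the most abundant member, at 64.7 ± 11.96 FPKM in ethanol and 63.2 ± 2.75 in control (SD, n = 3 each). Egr1, at 31.5 ± 4.39 and 28.7 ± 4.58 FPKM in the same order, and Junb, at 28.2 ± 6.90 and 30.3 ± 3.34, came next and did not differ from each other beyond their spread. Rgs2, Plk2, Arc, Gadd45g and Nr4a1 followed with medians over the 6 libraries of 20.0 to 26.0 FPKM.

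Fos, the best known member, was 14th of 39 with a median of 8.29 FPKM, above 64.9% of the genes with reads. Npas4 had a median of 3.24 FPKM, Nr4a3 of 2.07 and Fosb of 1.42. The lowest of the 38 were Egr2, Klf4 and Maff, at 1.22, 1.17 and 0.60 FPKM. Neighbours in this order mostly overlapped from library to library.

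**Figure D1:**
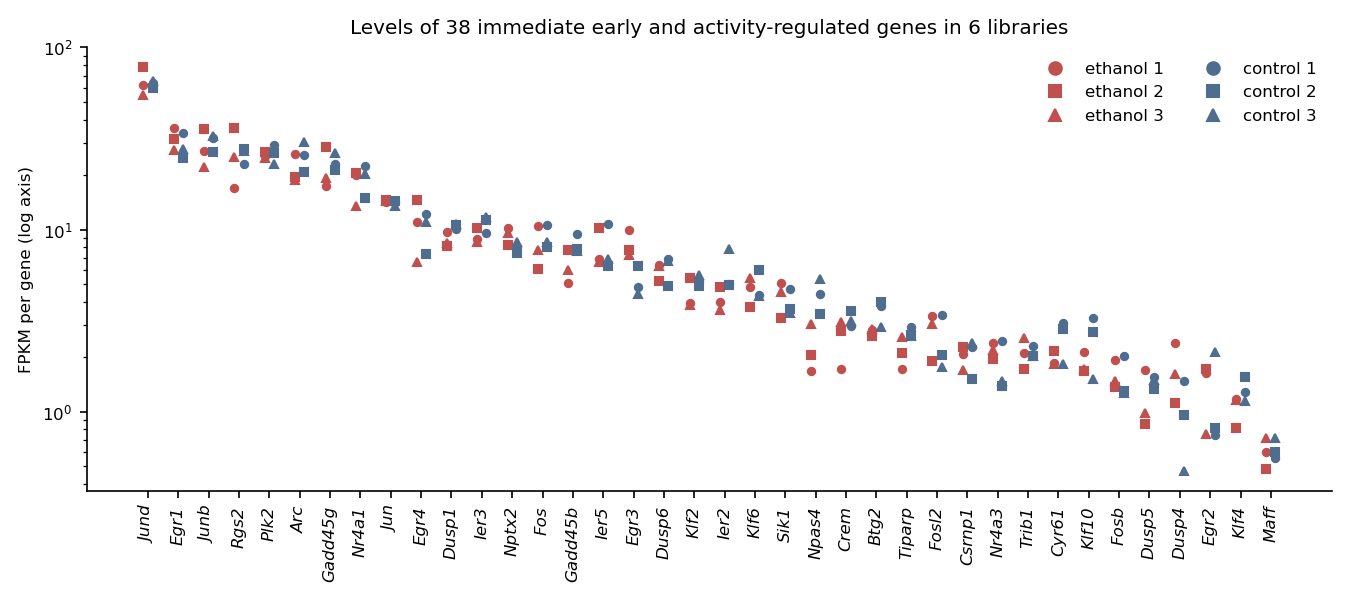
FPKM of 38 members in 6 libraries on a log axis, ordered by the median over libraries, with ethanol libraries in red left of control libraries in blue, and 1 point per library. Levels fall from about 63.0 FPKM for Jund to 0.60 for Maff, and for most genes the red and blue points overlap.

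The comparison of ethanol with control asked whether levels of these genes differed in tissue taken after the drinking period. Egr3 stood higher and Npas4 lower in ethanol with no overlap between the groups, while Fos, Fosb, Junb, Egr1, Nr4a1 and Arc overlapped. No member passed the test across all genes. By edgeR's quasi-likelihood test with Benjamini-Hochberg adjustment over the 15774 genes tested, 0 members were higher and 0 lower at an adjusted p under 0.05, and the background was 0.0% in either direction. Among members, the smallest adjusted p was 0.419. Before adjustment, 2 members (5.26% of 38) had a p under 0.05, Egr3 higher and Npas4 lower. Of all genes 10.7% did, 5.31% higher and 5.34% lower, so the members' share was not above the background. DESeq2 called 0 members and limma-voom 0, where DESeq2 called 0.913% of all genes. Without ethanol 2, edgeR called 1.33% of all genes and 0 members.

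Of the 38 members 22 had a positive and 16 a negative log2 fold change, with a median of 0.04, against 0.02 over all genes tested. The groups did not overlap in 4 members (10.5%), against 17.8% of all genes. Egr3, Jun and Nptx2 had all ethanol libraries above all control libraries, where the background is 9.35%, and Npas4 had them below, where it is 8.41%. In 33 of the 38 members the 95% interval of the log2 fold change lay inside a 2-fold change either way, as it did in 69.4% of all genes. The exceptions were Egr3, Npas4, Egr2, Dusp4 and Dusp5. For most members the data thus bound the difference to less than 2-fold by unadjusted intervals, and do not show that the groups are alike.

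**Figure D2:**
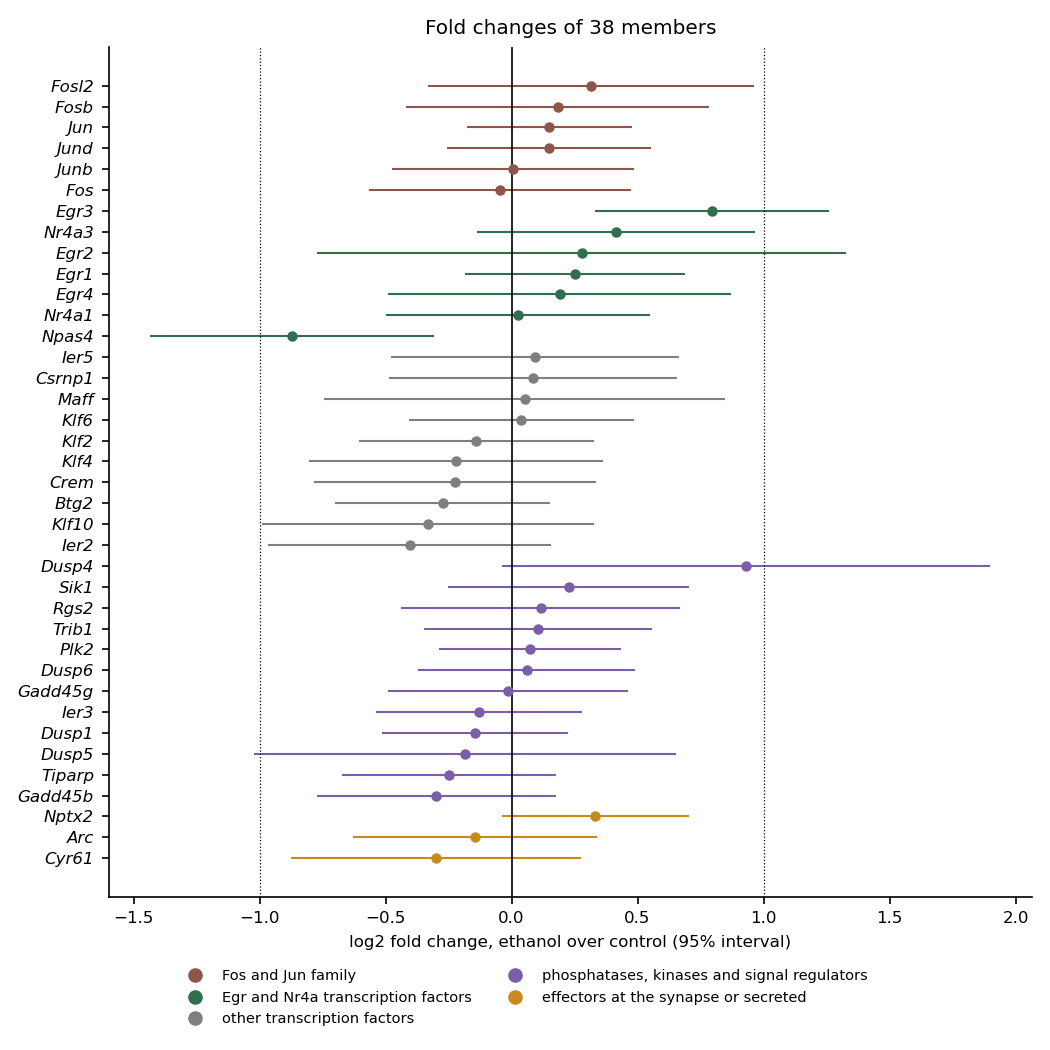
Log2 fold change of ethanol over control for 38 members, grouped and coloured by role, with 95% intervals from edgeR's fit and dotted lines at a 2-fold change. Only the intervals of Egr3 (0.79) and Npas4 (-0.87) leave out 0, and neither passed the adjustment over all genes.

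The Egr genes encode zinc-finger factors that relay activity to later target genes. Egr3, known as a target of dopamine and growth factor signals in striatal neurons, had 50.6, 38.0 and 33.9 CPM in ethanol 1, 2 and 3, against 22.1, 28.4 and 20.2 CPM in control 1, 2 and 3. The lowest ethanol library lay above the highest control library. The means were 40.8 ± 8.70 CPM in ethanol and 23.5 ± 4.28 in control (SD, n = 3 each). The log2 fold change was 0.79 (SE 0.21, interval 0.33 to 1.26, edgeR adjusted p = 0.419). Leaving out each library in turn gave 0.61 to 0.95.

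Egr3 lies on chromosome 14 from 70077445 to 70082613 (mm10, from the table) and has 3 transcripts there. Variant 1 took 76.9%, 79.9% and 67.8% of its reads in ethanol 1, 2 and 3, against 69.1%, 100% and 44.2% in control 1, 2 and 3. These shares are estimates and varied most among controls. With the most abundant transcript alone the log2 fold change was 0.82 but its unadjusted edgeR p was 0.104.

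The 13 medium spiny neuron markers summed to 2681, 4083 and 2238 CPM in ethanol 1, 2 and 3, against 2242, 2437 and 2023 CPM in control 1, 2 and 3. The sums overlapped. Of the 13 markers 12 had a positive log2 fold change (median 0.39) and 0 passed, and 0 of them were at 0 in any library. In 4 of them (30.8%, against 17.8% of all genes) the groups did not overlap, all with ethanol above. These were Drd1, Drd2, Adcy5 and Bcl11b, with log2 fold changes of 0.51, 0.86, 0.72 and 0.26. An unadjusted edgeR p under 0.05 was found in 3 of the 13 (23.1%, against 10.7% of all genes). Penk, the most abundant, reached 1423 CPM in ethanol 2, against 533 to 726 CPM in the other 5 libraries. Their part in the Egr3 values was not tested. In bulk tissue fewer cells of a type and less RNA per cell cannot be told apart.

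Egr1, also called Zif268 and used as a mark of activated neurons, had 146, 122 and 100.4 CPM in ethanol 1, 2 and 3, against 121, 87.8 and 100.4 CPM in control 1, 2 and 3. The groups overlapped, with a log2 fold change of 0.25 (SE 0.19, edgeR adjusted p = 0.642). It was 0.11 without ethanol 1, 0.38 without ethanol 3, 0.38 without control 1 and 0.15 without control 2. Egr4 ranged from 16.7 to 38.6 CPM in ethanol and from 17.8 to 30.1 in control. Egr2, which also serves myelinating glia of peripheral nerve, had values of 2.71 to 6.46 CPM in ethanol and 2.60 to 7.49 in control. It had the largest spread within groups of all members, with an SD of 0.78 in log2 CPM. The log2 fold changes of Egr4 and Egr2 were 0.19 and 0.28.

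Npas4 encodes a neuron-restricted factor that is induced by calcium entry and shapes inhibitory synapses. It had 7.18, 8.52 and 12.02 CPM in ethanol 1, 2 and 3, against 16.9, 13.0 and 20.6 CPM in control 1, 2 and 3. Every ethanol library lay below every control library, and ethanol 3 and control 2 were the closest pair. The means were 9.24 ± 2.50 CPM in ethanol and 16.9 ± 3.80 in control (SD, n = 3 each). The log2 fold change was -0.87 (SE 0.25, interval -1.43 to -0.31, edgeR adjusted p = 0.419). Leaving out each library in turn gave -1.10 to -0.70.

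Npas4 is also known from cortical excitatory neurons, a cell type that a core sample of the accumbens should hold few of. Their 12 markers summed to 160, 97.2 and 207.1 CPM in ethanol 1, 2 and 3, against 499, 206.9 and 265 CPM in control 1, 2 and 3. Ethanol 3 and control 2 were level, and the other libraries were lower in ethanol. Of the 11 tested, 10 had a negative log2 fold change (median -0.57) and 0 passed. An unadjusted edgeR p under 0.05 was found in 4 of the 11 (36.4%, against 10.7% of all genes), all lower in ethanol. The groups did not overlap in 2 of the 11 (18.2%, against 17.8% of all genes). These were Slc17a7 and Nrn1, with log2 fold changes of -2.32 and -0.60. Nrn1 was the most abundant of the 12 markers by its median over the 6 libraries. Emx1 was at 0 in control 2 and reached 2.59 CPM in control 1. Their part in the Npas4 values was not tested.

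Nr4a1 and Nr4a3 encode orphan nuclear receptors that are induced by cAMP and calcium. Nr4a1 had 64.9, 64.0 and 40.3 CPM in ethanol 1, 2 and 3, against 64.6, 42.6 and 59.1 CPM in control 1, 2 and 3, a log2 fold change of 0.02 (SE 0.23). Each group held high and low libraries. Nr4a3 had 17.5, 13.8 and 14.6 CPM in ethanol 1, 2 and 3, against 15.8, 8.89 and 9.65 CPM in control 1, 2 and 3. Its groups overlapped through control 1. EdgeR gave a log2 fold change of 0.41 (SE 0.25, adjusted p = 0.554). Leaving out control 1 moved it to 0.72, and leaving out control 2 to 0.26.

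Because they stand in the same libraries, Egr3 and Npas4 can be set against each other. The ratio of Egr3 to Npas4 CPM was 7.04, 4.46 and 2.82 in ethanol 1, 2 and 3, against 1.30, 2.18 and 0.98 in control 1, 2 and 3. Both genes were picked for their differences here, so the ratio only restates them. The ratio of Egr3 to Egr1, 0.35, 0.31 and 0.34 in ethanol 1, 2 and 3, against 0.18, 0.32 and 0.20 in control 1, 2 and 3, overlapped through control 2.

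**Figure D3:**
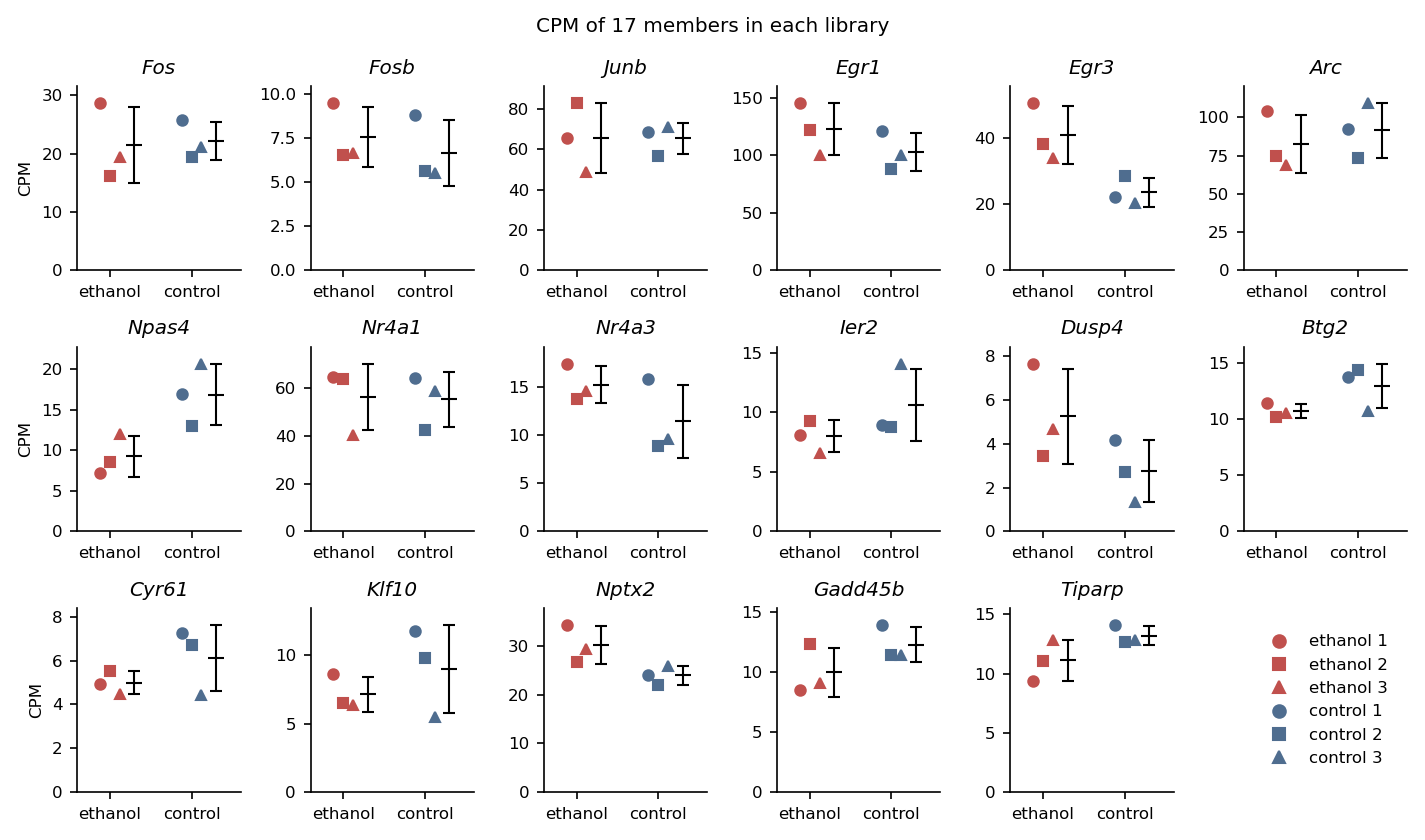
CPM of 17 members in each library, with ethanol in red and control in blue, a marker shape per replicate number, and black bars for the mean ± SD of each group of 3. Egr3 and Nptx2 (ethanol above) and Npas4 (ethanol below) separate, and the other panels overlap.

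Fos and Jun proteins pair to form a factor that binds activity-dependent enhancers. Fos had 28.7, 16.2 and 19.4 CPM in ethanol 1, 2 and 3, against 25.8, 19.5 and 21.2 CPM in control 1, 2 and 3. Ethanol libraries held both the highest and the lowest value, and the log2 fold change was -0.05 (SE 0.23, interval -0.56 to 0.47, edgeR adjusted p = 0.956). Fosb had 9.51, 6.52 and 6.68 CPM in ethanol 1, 2 and 3, against 8.81, 5.66 and 5.52 CPM in control 1, 2 and 3, a log2 fold change of 0.18 (SE 0.27). Junb, whose protein often damps Jun, had 65.3, 82.9 and 48.6 CPM in ethanol 1, 2 and 3, against 68.4, 56.5 and 71.0 CPM in control 1, 2 and 3, a log2 fold change of 0.0063.

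Replicate 1 of either group was the higher library for the Fos genes. Fos, Fosb and Fosl2 were each highest in ethanol 1 and next in control 1. Fosl2 had 25.9, 14.2 and 21.4 CPM in ethanol 1, 2 and 3, against 23.2, 13.9 and 12.3 CPM in control 1, 2 and 3. Ethanol 1 and control 1 are also the 2 most deeply sequenced libraries, and the part of depth was not tested. The ratio of Fosb to Fos was 0.33, 0.40 and 0.34 in ethanol 1, 2 and 3, against 0.34, 0.29 and 0.26 in control 1, 2 and 3.

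Jun was the steadiest member, at 59.7, 58.5 and 54.7 CPM in ethanol 1, 2 and 3, against 52.5, 52.7 and 50.6 CPM in control 1, 2 and 3. The groups did not overlap, yet the log2 fold change was 0.15 (SE 0.15, edgeR adjusted p = 0.718). Its SD within groups, 0.05 in log2 CPM, was smaller than that of all but 0.393% of tested genes, while edgeR shares spread between genes. Jund stood at 236 ± 47.7 CPM in ethanol and 213 ± 11.3 in control (SD, n = 3 each). The log2 fold change was 0.15.

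The table splits the Fosb reads between its spliced forms, with an error that it does not give. It lists a transcript of 3776 bases and another that is shorter by 140 bases. In the mm10 GENCODE annotation an intron of that length lies on chromosome 7 from 19305007 to 19305146, and its removal is what gives ΔFosB, the stable truncated protein. The shorter transcript took 22.4%, 17.5% and 22.1% of the Fosb reads in ethanol 1, 2 and 3, against 50.4%, 0% and 53.0% in control 1, 2 and 3.

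Ethanol libraries were close to each other, and control libraries lay on both sides of them. Most Fosb reads fall where the forms are the same, so the split is an estimate, and 0 in control 2 does not show that the shorter form was missing there. With the most abundant transcript only, the log2 fold change of Fosb was 0.52, against 0.18 for the gene. An exact two-sided permutation test of the shares gave p = 0.4, where 0.1 is the smallest p that 3 against 3 libraries allow. The shorter form stood at 0.44, 0.24 and 0.33 FPKM in ethanol 1, 2 and 3, against 1.04, 0 and 0.68 FPKM in control 1, 2 and 3. The longer form stood at 1.48, 1.12 and 1.14 FPKM in ethanol, against 0.99, 1.29 and 0.58 FPKM in control.

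**Figure D4:**
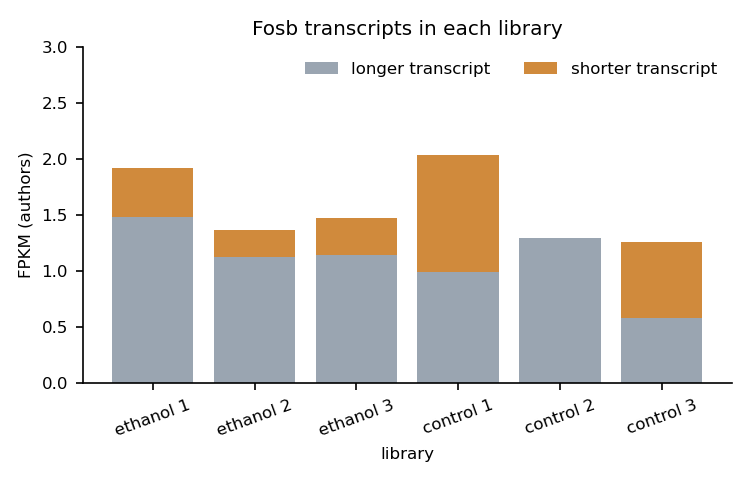
FPKM of the longer and the shorter Fosb transcript, stacked for each library, with ethanol left of control. The shorter form, which lacks the 140 bases, is 0.24 to 0.44 FPKM in ethanol and 0 to 1.04 in control, with 0 in control 2.

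Arc and Nptx2 are effectors at the synapse. Arc, whose protein drives the removal of AMPA receptors from synapses, had 104, 75.1 and 68.7 CPM in ethanol 1, 2 and 3, against 92.3, 73.3 and 109 CPM in control 1, 2 and 3. The groups overlapped, with a log2 fold change of -0.15 (SE 0.22, edgeR adjusted p = 0.828). Leaving out ethanol 1, 2 or 3 gave -0.35, -0.094 or -0.026, and leaving out control 2 or 3 gave -0.28 or -0.0062. Of its 2 transcripts, variant 2 took 28.8% to 38.9% of the reads in ethanol and 31.1% to 40.4% in control.

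Nptx2, a secreted pentraxin that gathers AMPA receptors, had 34.2, 26.7 and 29.4 CPM in ethanol 1, 2 and 3, against 23.9, 22.0 and 25.9 CPM in control 1, 2 and 3. All ethanol libraries were higher, the closest pair being 26.7 and 25.9 CPM. Its log2 fold change was 0.33 (SE 0.17, edgeR adjusted p = 0.495). Cyr61, a secreted matrix protein, had 4.94, 5.53 and 4.48 CPM in ethanol 1, 2 and 3, against 7.25, 6.70 and 4.43 CPM in control 1, 2 and 3, a log2 fold change of -0.30. Control 3 lay below all ethanol libraries, and the value was -0.49 without it and -0.16 without control 1.

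The other 10 transcription factors and nuclear regulators had a median log2 fold change of -0.18, with 6 negative, 4 positive and 0 called, and the groups overlapped in all 10. Ier2, a rapidly induced nuclear protein, had 8.06, 9.30 and 6.63 CPM in ethanol 1, 2 and 3, against 8.95, 8.76 and 14.1 CPM in control 1, 2 and 3. Only control 3 stood out, and leaving it out moved the log2 fold change to -0.15, against -0.40. Btg2, an antiproliferative regulator, had 11.4, 10.2 and 10.5 CPM in ethanol 1, 2 and 3, against 13.8, 14.3 and 10.7 CPM in control 1, 2 and 3, a log2 fold change of -0.27.

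Klf10, a Krüppel-like factor induced by growth factors, had 8.60, 6.47 and 6.33 CPM in ethanol 1, 2 and 3, against 11.7, 9.74 and 5.47 CPM in control 1, 2 and 3. EdgeR gave a log2 fold change of -0.33, which moved to -0.09 when control 1 was left out and to -0.59 when control 3 was. Klf2 and Klf4, known from endothelium, had log2 fold changes of -0.14 and -0.22, and Klf6 had 0.04. The 10 endothelial and mural cell markers, 0 of which were at 0, summed to 211 to 257 CPM in ethanol and 251 to 305 in control. Of the 10, 5 had a positive and 5 a negative log2 fold change (median -0.0012), and 0 passed. The most abundant by its median, Rgs5, had 35.7 to 59.6 CPM in ethanol and 66.6 to 89.1 in control. Their part in the Klf2, Klf4 and Cyr61 values was not tested.

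Crem encodes both activators and repressors of cAMP-responsive genes, and an internal start is known to give the repressor ICER. Crem stood at 6.83 ± 1.83 CPM in ethanol and 7.96 ± 0.46 in control (SD, n = 3 each). The log2 fold change was -0.22. The 4 transcripts with reads that start over 50000 bases inside the farthest start took 51.7%, 51.6% and 66.6% of its reads in ethanol 1, 2 and 3, against 24.3%, 56.8% and 71.8% in control 1, 2 and 3. The shares overlapped (exact two-sided permutation p = 0.9), and the reads are split among 17 transcripts. Ier5, Csrnp1 and Maff had log2 fold changes of 0.09, 0.09 and 0.05, and Maff was the least abundant, at 1.22 to 1.72 CPM in ethanol and 1.28 to 1.64 in control.

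The last class holds 12 phosphatases, kinases and signal regulators, many of which switch off the pathways that induce them. Its median log2 fold change was 0.02, with 6 positive, 6 negative and 0 called. Dusp4, a nuclear phosphatase of MAP kinases, had 7.66, 3.43 and 4.69 CPM in ethanol 1, 2 and 3, against 4.18, 2.70 and 1.37 CPM in control 1, 2 and 3. Ethanol 2 lay below control 1, and the interval of the log2 fold change of 0.93 (SE 0.43, edgeR adjusted p = 0.476) ran from -0.04 to 1.90. It was 0.56 without ethanol 1 and 0.60 without control 3. Dusp4 had the largest ratio of highest to lowest library of all tested members, at 5.61.

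Dusp1, Dusp5 and Dusp6 are the other MAP kinase phosphatases among the members. Dusp1, which acts on stress and ERK kinases, had a log2 fold change of -0.15, with 19.7 to 24.9 CPM in ethanol and 23.0 to 24.7 in control. Dusp6, an ERK phosphatase of the cytoplasm, had 0.06, and Dusp5, which acts on ERK in the nucleus, had -0.19 (interval -1.02 to 0.65) at 1.27 to 2.56 CPM in ethanol and 1.79 to 2.10 in control.

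Gadd45b, a stress sensor tied to DNA demethylation at activity-dependent genes, had 8.51, 12.3 and 9.12 CPM in ethanol 1, 2 and 3, against 14.0, 11.5 and 11.4 CPM in control 1, 2 and 3. Ethanol 2 lay within the control range, and the log2 fold change was -0.30 (SE 0.21). It was -0.49 without ethanol 2, and -0.19 without either ethanol 1 or control 1. Tiparp, a mono-ADP-ribosyltransferase, had 9.40, 11.1 and 12.8 CPM in ethanol 1, 2 and 3, against 14.1, 12.6 and 12.8 CPM in control 1, 2 and 3, a log2 fold change of -0.25. Its groups overlapped through ethanol 3, and the value was -0.14 without ethanol 1.

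Sik1, a kinase that restrains CREB coactivators, had a log2 fold change of 0.23, and Plk2, a kinase of homeostatic synaptic scaling, 0.07. Rgs2, a brake on G protein signalling, ranged from 67.4 to 137 CPM in ethanol and from 80.3 to 96.6 in control, a log2 fold change of 0.12. Trib1, a pseudokinase, had 0.10, Ier3, a survival factor, -0.13, and Gadd45g -0.01.

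Set side by side, the members differed more from library to library than from group to group. Their mean log2 CPM was 4.21, 4.11 and 3.98 in ethanol 1, 2 and 3, against 4.19, 3.98 and 4.07 in control 1, 2 and 3, with a difference of 0.02 between group means and SDs of 0.12 and 0.11. The members most often had their highest value in ethanol 1 (14 of 38, 36.8%), where 26.1% of all tested genes did. They were lowest most often in ethanol 3 and control 3 (9 each, 23.7%), where 15.1% and 15.2% of all genes were. No p is given for these shares, since genes of a library are not independent.

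The Egr and Nr4a class, in which Npas4 was also counted, swung most. Its mean log2 CPM was 4.78, 4.72 and 4.29 in ethanol 1, 2 and 3, against 4.54, 4.18 and 4.60 in control 1, 2 and 3. Of its 7 genes, 6 had a positive log2 fold change and Npas4 a negative one. In 10 of the 38 members (26.3%) the lowest value of each group lay in ethanol 3 and in control 2, against 11.7% of all tested genes, a tally made after the values were seen. These were Junb, Jund, Egr1, Egr4, Arc, Nr4a1, Ier2, Ier5, Klf2 and Csrnp1. The other transcription factors had 3.07, 3.07 and 2.99 in ethanol 1, 2 and 3, against 3.23, 3.15 and 3.13 in control 1, 2 and 3, which did not overlap, though none of the 10 did so by itself in either direction. Within groups, the median SD of a member was 0.29 in log2 CPM, against 0.28 for all tested genes.

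**Figure D5:**
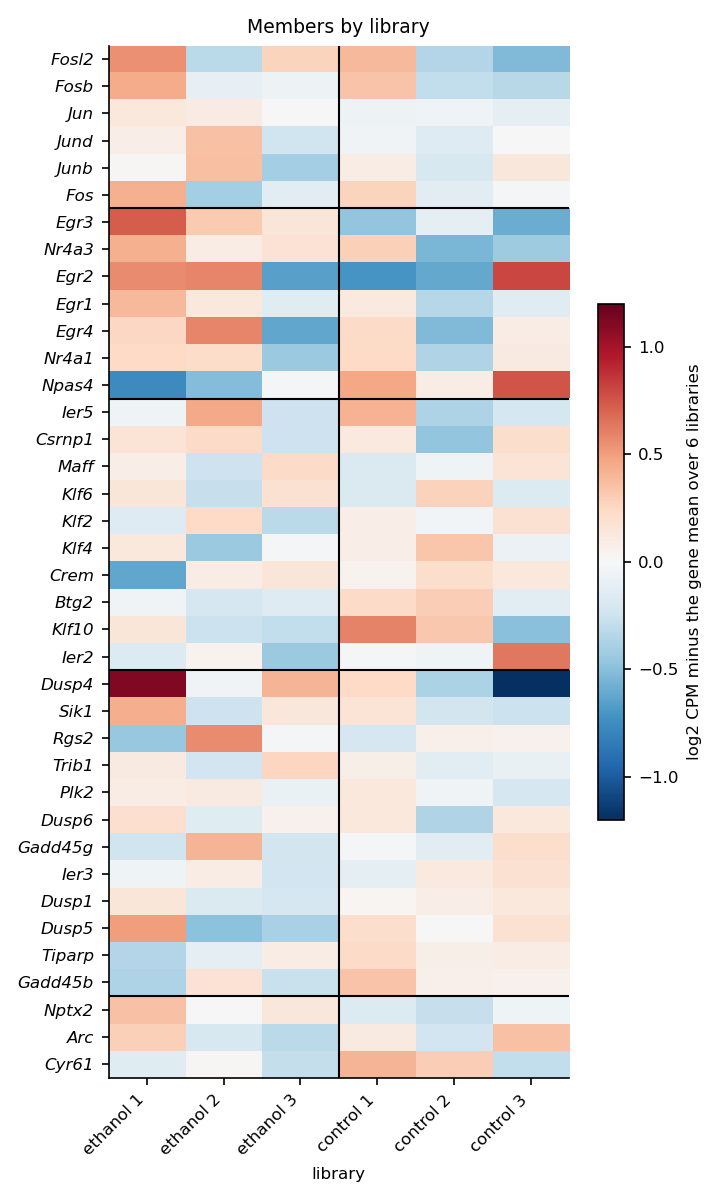
Log2 CPM of 38 members minus each gene's mean over the 6 libraries, with ethanol libraries left of the vertical line, control libraries right of it, and black lines between role classes. Rows mostly change colour between libraries of a group. Egr3, Npas4 and, with smaller values, Jun change sign at the line, and Nptx2 does so apart from -0.0011 in ethanol 2.

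Genes around the members were read from 3 lists. Of 30 other activity-regulated genes 19 had a positive and 11 a negative log2 fold change (median 0.14), and 0 passed in either direction. Scg2, which encodes secretogranin II of dense-core vesicles, had 730 ± 46.4 CPM in ethanol and 477 ± 101 in control (SD, n = 3 each). The log2 fold change was 0.61 (SE 0.18). Nrn1, a neuritin gene that is also a cortical marker above, had 48.6 ± 11.96 CPM in ethanol and 73.5 ± 8.60 in control, a log2 fold change of -0.60. Bhlhe40, a clock-linked repressor, had 74.5 ± 11.5 and 54.1 ± 1.35 CPM in the same order, a log2 fold change of 0.46. These 3 were named for the smallest p in the list. Each had groups that did not overlap and an edgeR adjusted p of at least 0.419. In the whole list the groups did not overlap in 6 of 30 genes (20%), against 17.8% of all genes. Bdnf, which Npas4 is known to regulate, had 6.29 ± 1.99 CPM in ethanol and 8.76 ± 3.04 in control. Its groups overlapped, with a log2 fold change of -0.48 (SE 0.33, edgeR adjusted p = 0.608).

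Of 30 genes that carry calcium and cAMP signals to CREB and the serum response factor, 20 had a positive and 10 a negative log2 fold change (median 0.13), and 0 passed. Srf, the serum response factor gene itself, had 58.3, 58.1 and 45.5 CPM in ethanol 1, 2 and 3, against 42.1, 35.9 and 38.7 CPM in control 1, 2 and 3. The groups did not overlap, with a log2 fold change of 0.47 (SE 0.17, edgeR adjusted p = 0.439). That was so in 5 of the 30 genes of this list (16.7%), against 17.8% of all genes. Rps6ka3, a kinase of CREB, had 16.7 ± 4.57 CPM in ethanol and 24.7 ± 1.53 in control, a log2 fold change of -0.57. Mef2c, an activity-dependent factor that is strong in cortex, had 34.6 ± 9.64 and 52.6 ± 11.4 CPM in the same order, a log2 fold change of -0.61.

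Of 9 MAP kinase phosphatases outside the members, 7 had a positive log2 fold change (median 0.18) and 0 passed. Dusp8 had 164 ± 20.8 CPM in ethanol and 121 ± 6.33 in control, a log2 fold change of 0.44. Ptpn5, the striatum-enriched phosphatase STEP, had 372 ± 36.8 and 310.3 ± 15.1 CPM in the same order, a log2 fold change of 0.26. Dusp7 had a log2 fold change of -0.17.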

How the data were processed

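The series gave 1 table of mRNA sequencing with a row per RefSeq transcript and, per the file headers, a read count and an FPKM value for each of 6 samples, 3 ethanol and 3 control by title. The deposited counts are estimated counts: in each library 100% of checked counts equalled the product of FPKM, length and 1 fitted scale per library, rounded up (tolerance 0.05 reads). FPKM values were deposited by the authors and used for levels between genes. The submitters' processing notes name mm10 and bcl2fastq, while neither aligner, counter nor strandedness was stated, so overlapping and antisense reads cannot be told apart.

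The 36780 transcripts were summed to 24532 genes by gene identifier. edgeR 4.0.16 in R 4.3.3 was used with filterByExpr (minimum count 10, 15774 genes kept), TMM scaling, and the two-sided quasi-likelihood test with group as the only term. P-values were adjusted by Benjamini-Hochberg over all genes tested (threshold 0.05), and unadjusted 95% intervals come from the same fit. Log2 CPM used a prior count of 2. The SE is the log2 fold change over the root of F. Depth gives a floor of 3 reads at 0.048 to 0.082 CPM, for counting error only. On simulated data (3 sets, 300 changed genes per fold over the sets), edgeR recovered 95.3% of 4-fold changes and 43% of 2-fold ones. There the genes were drawn independently, changed genes lay above a minimum CPM, and no library stood apart. These shares may thus not hold for the present data. DESeq2 1.42.0 and limma 3.58.1 (voom), other scaling and filters, the most abundant transcript only, a replicate block and fits without each library were alternatives.

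Members and lists were chosen with earlier results of these data known. Named with every library were the 12 members of smallest p and Fos, Fosb, Junb, Egr1, Arc, Npas4, Nr4a1 and Nptx2. From each pathway list the 3 genes of smallest p were named, and from cell type lists the most abundant; 1 cell type list is not reported here. Jun, Fosl2 and Bdnf were added after their values were seen. No batch is given in the labels. Promoters are from RefSeq (GRCm38.p6). None is printed for chromosome 18 genes.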

Additional observations from a re-analysis of the deposited data

How the results depend on the processing

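No member was called under any alternative run, and the count over all genes was 0 in edgeR, with 1681 genes at an unadjusted p under 0.05. It was 144 with DESeq2 (51 higher, 93 lower), and from 0 to 211 in fits that left out 1 library: 211 without ethanol 2 (201 higher, 10 lower) and 1 without control 1, the gene model Gm9855, named after its value was seen. The median log2 fold change of the members ranged from -0.084 (without control 2) to 0.076 (without ethanol 3) over those fits. The mean log2 CPM of the members in control 3 was 3.92, against 4.07, with the most abundant transcript only. At an adjusted p threshold of 0.10 edgeR called 0 genes.

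Of the 17 members named with every library, 13 kept the sign of the log2 fold change in all 13 alternatives. Egr3 ranged from 0.61 to 0.95 and Npas4 from -1.10 to -0.70, and their smallest adjusted p over alternatives were 0.0581 and 0.0931. Values near 0 changed sign. Junb was -0.085 with total counts only, -0.019 with limma-voom, -0.0063 with the stricter filter, and -0.21 to 0.19 without single libraries. Nr4a1 was -0.069 with total counts only and -0.13 to 0.22 without single libraries, Fos -0.32 to 0.11 and Fosb -0.016 to 0.44. Fosb was 0.52 with the most abundant transcript only. With total counts only Egr1 was 0.16, Arc -0.24, Fos -0.14 and Fosb 0.091. With total counts only the median of all genes was -0.06, against 0.02. The replicate block, where Junb was -0.021, called 0 genes. Deviations of same-numbered samples had correlations of 0.15, -0.03 and -0.02, against -0.22 to 0.19 for the other pairs. With 3 samples a group these values cannot decide whether the numbers pair samples.

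With 3 samples a group, changes under 2-fold in single genes are mostly below what the test finds. Counts split among isoforms are estimates, so the Fosb, Egr3 and Crem shares carry an error that the files do not give.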
